A study of Mus musculus with 15 samples.

Results

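In a pull-down aimed at collagen-making pericytes of the mouse kidney, 6 messages were among those set most strongly apart from the rest of the tissue. The muscle genes Myom2 and Myl7, the lens connexin gene Gja3 and the neuronal receptor gene Gabra4 have their best known sites elsewhere. The others were Rhpn1, known in the kidney for a role in podocytes, and the retinoic acid responsive gene Rarres1. These 6 genes, of the 18193 measured, were read on 11 probe sets. They were chosen by their high signal in the ribosome-bound over the unbound fraction, and on day 0 they held ranks 1, 2, 3, 7, 8 and 9 of the 16864 genes tested when these were ordered by the fitted bound minus unbound difference, signals at background included. That difference is therefore given as a description, without a test. The question put to the data was whether the 6 genes kept the course of podocyte genes or of contractile genes when the ureter was obstructed.

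All mice carried Tg:Col1a1-eGFPL10a, in which the Col1a1 promoter drives ribosomal protein L10a fused to eGFP, so that every cell type with an active promoter carries the tag. In translating ribosome affinity purification (TRAP) the tagged ribosomes are pulled out of a lysate with the messages on them, giving the bound fraction, and the remaining lysate gives the unbound fraction. The bound arrays came from sham-operated kidneys on day 0 (arrays 1 to 3) and from kidneys after unilateral ureteral obstruction on day 2 (arrays 7 to 9) and day 5 (arrays 10 to 12). The unbound arrays came from sham kidneys on day 0 (arrays 4 to 6) and obstructed kidneys on day 5 (arrays 13 to 15), and no unbound fraction of day 2 was analysed here. All groups shared the strain (C57/129sv), both sexes and an age range of P14 to P300 in the labels. The bound samples are labelled as pericytes and the unbound samples as kidney medulla. Nothing in the labels states that arrays of 1 group stand for different mice, so the spread behind each p-value may be technical.

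Myom2 codes for myomesin 2, which ties myosin filaments together in the M-band of striated muscle, and Myl7 for the regulatory myosin light chain of the heart's atria. Gja3 codes for connexin 46, a gap junction channel of lens fibre cells, and Gabra4 for the alpha-4 subunit of the GABA-A receptor, a ligand-gated chloride channel of neurons. Rhpn1 codes for rhophilin 1, known in the kidney for a role in podocytes, and Rarres1 for a retinoic acid responsive membrane protein related to latexin. Podocytes are the epithelial cells that wrap the glomerular capillaries. Their foot processes are joined by the slit diaphragm, which contains nephrin (Nphs1), and are held by a contractile actin skeleton.

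The 6 genes are unlinked. In GRCm38.p6, as RefSeq annotates it, Myom2 spans chr8:15057653-15133420, Myl7 chr11:5896637-5898782, Gja3 chr14:57034460-57058030, Gabra4 chr5:71569734-71658308, Rhpn1 chr15:75704246-75714419 and Rarres1 chr3:67478886-67515523. Because the 6 messages ran together across the arrays, the 250 bases before the annotated start are shown for the 4 genes with an entry in the RefSeq promoter table; Myom2 and Rhpn1 have none there, and Gja3 has a second window, from a second annotated start, that is not shown and holds none of the motifs below. Capitals mark every match to any of 6 motifs on either strand, a motif list chosen after these sequences had been seen: the CArG box bound by serum response factor, the MEF2 box, GCGTGGG (a core of WT1 sites), GCGGGGGCG (an EGR site), TAATTA (a homeodomain core) and AGGTCA (a nuclear receptor element). No match overlapped another.
Myl7, chr11:5898783-5899032, minus strand: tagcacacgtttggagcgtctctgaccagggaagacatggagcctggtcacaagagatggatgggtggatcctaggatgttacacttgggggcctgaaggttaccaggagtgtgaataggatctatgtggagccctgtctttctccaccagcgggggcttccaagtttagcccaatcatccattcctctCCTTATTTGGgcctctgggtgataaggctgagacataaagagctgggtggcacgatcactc
Gja3, chr14:57058031-57058280, minus strand: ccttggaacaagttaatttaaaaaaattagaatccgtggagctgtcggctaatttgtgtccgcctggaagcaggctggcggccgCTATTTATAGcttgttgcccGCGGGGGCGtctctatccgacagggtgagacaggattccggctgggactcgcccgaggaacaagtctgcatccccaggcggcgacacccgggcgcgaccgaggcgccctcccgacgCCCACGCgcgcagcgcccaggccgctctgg
Gabra4, chr5:71658309-71658558, minus strand: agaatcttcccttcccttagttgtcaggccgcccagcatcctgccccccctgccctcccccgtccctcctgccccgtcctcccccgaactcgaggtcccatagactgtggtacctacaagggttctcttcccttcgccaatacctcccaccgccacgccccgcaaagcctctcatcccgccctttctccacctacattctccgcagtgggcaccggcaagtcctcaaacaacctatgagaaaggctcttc
Rarres1, chr3:67515524-67515773, minus strand: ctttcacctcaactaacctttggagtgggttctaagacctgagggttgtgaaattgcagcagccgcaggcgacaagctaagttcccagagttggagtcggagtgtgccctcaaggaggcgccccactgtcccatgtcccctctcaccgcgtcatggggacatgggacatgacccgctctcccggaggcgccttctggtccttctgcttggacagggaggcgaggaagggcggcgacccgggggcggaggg

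The Myl7 window holds a CArG box, CCTTATTTGG, 61 to 52 bases before the start, and 1.47% of the 32851 windows of this length in the table hold one. The Gja3 window holds a MEF2 box, CTATTTATAG (0.508% of windows), an EGR site (2.57%) and the WT1 core, which lies on the opposite strand as CCCACGC (4.3%). The Gabra4 and Rarres1 windows hold none of the 6 motifs, of which TAATTA occurs in 4.84% and AGGTCA in 14% of all windows. No motif was common to 2 of the 4 windows shown. A match describes letters in this window and is not evidence that a factor binds there.

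Signals below are log2 values after quantile normalization, and the highest of 27 negative control probe sets on each array (3.41 to 5.09) served as the level below which a signal is only a bound. Col1a1, whose promoter drives the tag, had a day 0 signal of 11.61 ± 0.08 (SD, n = 3) in bound and 9.18 ± 0.33 in unbound RNA. Of 14 fibroblast and pericyte genes, the cells the label names, all were above the negative controls in the bound fraction on day 0, and 11 were higher and 0 lower there than in the unbound fraction (limma). Of all genes tested, 4.81% were higher and 4.1% lower. Arrays 6, 9, 12 and 15 were brighter than the rest, with hybridization controls averaging 12114 to 12905 against 4727 to 5864 on the others. Array 11, of the day 5 bound group, stood apart in RNA quality: the ratio of its 5' to 3' Gapdh control signals was 0.0269, against 0.178 to 0.583 on the other 14 arrays.

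Of the muscle genes, Myom2 was read at 12.39, 11.68 and 11.10 on the day 0 bound arrays and at 5.14, 3.74 and 4.29 on the unbound arrays. On day 2 the bound arrays gave 10.94, 10.02 and 10.45, and on day 5 they gave 10.09, 6.62 and 8.36. The unbound arrays of day 5 gave 2.40, 3.99 and 3.43. Every bound array therefore lay above every unbound array of its day, and the bound signal was highest on day 0, with no overlap between day 0 and either later day. Myom2 is represented by 4 probe sets. The values above are from 1457435_x_at, and its suffix marks a set whose probes may match more than one transcript. Probe set 1450917_at, without that suffix, gave a bound minus unbound difference of 8.12 on day 0 and a bound day 5 minus day 0 difference of -4.07, against 7.33 and -3.37 for the first. A set of the same suffix type, 1438175_x_at, gave 8.88 and -4.02, while 1438372_at was at the negative controls on all arrays and carried no measurement. The larger sizes from 1450917_at and 1438175_x_at rest partly on background. They were above the negative controls on 0 and 1 of 3 day 0 unbound arrays, against 2 of 3 for 1457435_x_at. On the day 5 bound arrays each was above them on 2 of 3, against 3 of 3.

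Myl7 was read at 10.88, 9.85 and 9.61 on the day 0 bound arrays and at 7.93, 8.03 and 9.19 on day 2. The day 5 bound arrays were far apart, at 9.01, 1.02 and 6.47. The unbound arrays were near or below the negative controls, at 4.28, 2.43 and 3.63 on day 0 and 1.90, 1.41 and 1.67 on day 5. The value of 1.02 belongs to array 11, on which the Myl7 signal was indistinguishable from the negative controls although the other 2 arrays of its group were clearly above them.

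The 2 channel genes had a similar profile. Gja3 was read at 9.70, 8.34 and 8.05 on the day 0 bound arrays, at 6.2, 5.93 and 8.32 on day 2 and at 6.89, 1.89 and 4.95 on day 5. Its unbound arrays gave 2.76, 1.24 and 3.01 on day 0 and 0.51, 0.32 and 3.86 on day 5. The second Gja3 probe set, 1422339_at, was above the negative controls on 2 of 15 arrays only and is not used. Gabra4 was read at 9.61, 7.93 and 8.19 on the bound arrays of day 0, at 7.10, 6.27 and 8.33 on day 2 and at 6.52, 5.39 and 6.77 on day 5. Its unbound arrays gave 1.69, 2.81 and 3.75 on day 0 and 2.79, 2.94 and 2.87 on day 5. Of the 6 genes Gabra4 had the tightest day 5 bound group (SD 0.74), and it was above the negative controls on array 11 as well. The second Gabra4 probe set, 1429330_at, gave a bound minus unbound difference of 5.62 on day 0 and a bound day 5 minus day 0 difference of -3.51. Both rest partly on background: this set was above the negative controls on 0 of 3 day 0 unbound and 1 of 3 day 5 bound arrays.

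Rhpn1 was read at 10.32, 8.75 and 8.03 on the bound arrays of day 0, at 7.60, 5.55 and 6.93 on day 2 and at 7.80, 3.40 and 5.35 on day 5. Its unbound arrays gave 4.90, 1.58 and 3.30 on day 0 and 4.12, 5.74 and 5.42 on day 5. Rarres1 was read at 8.77, 8.00 and 6.96 on the day 0 bound arrays, at 6.36, 7.21 and 7.92 on day 2 and at 7.06, 1.46 and 6.05 on day 5. Its unbound arrays gave 0.70, 2.36 and 3.02 on day 0 and 3.90, 4.59 and 4.06 on day 5. For both genes the bound and unbound arrays were separate on day 0 and overlapped on day 5, when the mean bound signal was lower and the unbound signal higher than on day 0.

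**Figure D1:**
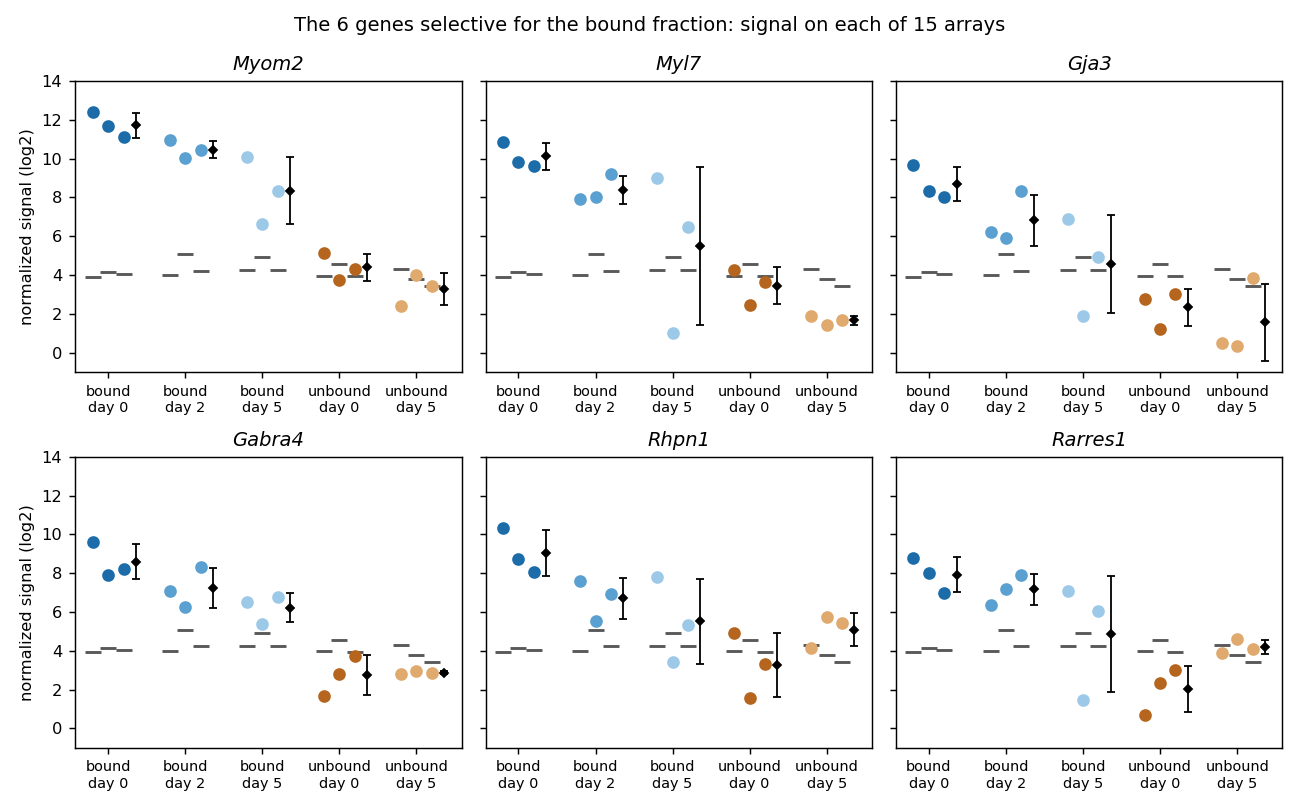
Normalized log2 signal (y axis) of the 6 genes on each of the 15 arrays, grouped by fraction and day; coloured points are arrays in number order, black diamonds with bars are the mean and SD of 3 arrays, and grey dashes are the highest negative control of each array. On day 0 every bound point lies above every unbound point, and the middle point of the day 5 bound group, array 11, is the lowest of its group for all 6 genes.

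On day 0 the bound minus unbound difference ran from 5.77 to 7.33 with a median of 6.12, against -0.13 over all genes tested. On the unbound side 2 of 3 arrays were above the negative controls for Myom2, 1 of 3 for Myl7 and Rhpn1, and 0 of 3 for Gja3, Gabra4 and Rarres1. Folds are therefore lower bounds, obtained by setting each unbound array to at least its highest negative control. Myom2 was at least 133-fold higher in the bound fraction (fitted difference 7.33 ± 0.74, log2 ± SE). Myl7 was at least 57.7-fold higher, Rhpn1 at least 23.7-fold, Gja3 at least 23.3-fold, Gabra4 at least 21.5-fold and Rarres1 at least 13.5-fold. All 6 were higher without overlap, as were 14.7% of all genes tested, and nothing is read from that count because it chose the genes. Ranks 4, 5 and 10 were held by Ddn, Nphs1 and Rab3b. Ddn and Nphs1 code for the podocyte proteins dendrin and nephrin, and Rab3b codes for a small GTPase of vesicle traffic.

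On day 5 the same comparison parted the 6 genes. Myom2 was at least 21.7-fold higher in the bound fraction. Gabra4 was at least 5.25-fold higher, and Myom2 and Gabra4 were the 2 of 6 genes without overlap (21.7% of all genes tested were higher without overlap). Myl7 was at least 3.16-fold and Gja3 at least 1.5-fold higher, with overlapping groups, array 11 lying within or below the range of the unbound arrays. The differences of Rhpn1 (0.42 ± 1.09) and Rarres1 (0.68 ± 1.14) were smaller than their standard errors. Without array 11, and with the same floor, the bounds were at least 14.9-fold for Myl7, 3.81-fold for Gja3, 2.67-fold for Rhpn1, 4.70-fold for Rarres1, 39.7-fold for Myom2 and 7.01-fold for Gabra4. The rule does not say whether day 5 results helped to choose the genes, so these values too carry no test.

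Within the bound fraction all 6 genes had lower means on day 2 than on day 0 and lower means on day 5 than on day 2, although the latter difference turned to 0.30 for Rhpn1 with array weights. The day 2 minus day 0 difference ran from -0.75 (Rarres1) to -2.34 (Rhpn1), and Myom2, Myl7 and Rhpn1 were the 3 of 6 without overlap, which 10% of all genes tested also showed. The day 5 minus day 0 difference ran from -2.35 (Gabra4) to -4.61 (Myl7), with a median of -3.44 against 0.12 over all genes tested. Myom2 and Gabra4 were above the negative controls on all arrays of both groups, and their mean signals were 10.3 and 5.10 times lower on day 5. The other 4 genes were below the negative controls on array 11, so their fitted differences (-4.61 for Myl7, -4.12 for Gja3, -3.52 for Rhpn1 and -3.05 for Rarres1) rest partly on background. With that array at its highest negative control the day 5 signal was at least 9.95-fold lower for Myl7, 8.64-fold for Gja3, 8.07-fold for Rhpn1 and 3.74-fold for Rarres1. Of the 6 genes 5 did not overlap, Rarres1 being the exception, against 16.7% of all genes tested. Both comparisons use the day 0 bound arrays, which helped to choose the genes for being high there, so a lower value later is partly built in and no test is given.

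Array 11 weighed on the size of these differences. Without it the day 5 minus day 0 difference was -2.38 for Myl7 (from -4.61), -2.78 for Gja3 (from -4.12), -2.46 for Rhpn1 (from -3.52), -2.50 for Myom2 (from -3.37), -1.36 for Rarres1 (from -3.05) and -1.93 for Gabra4 (from -2.35). All 6 stayed below 0. The value on array 11 minus the mean of arrays 10 and 12 had a median of -3.60 for the 6 genes, -0.62 for 29 podocyte genes, -0.15 for 20 smooth muscle genes and 0.05 for all genes tested. The part of RNA quality in this was not tested. Array 1 was the reverse case within day 0, and all 6 genes were highest there: its excess over the mean of arrays 2 and 3 had a median of 1.39 for the 6 genes, 0.58 for the podocyte genes and 0.01 for all genes tested.

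The comparison of bound day 5 with bound day 2, whose difference uses no day 0 array, is the one in which the 6 genes were tested. The spread behind the test came from all 15 arrays, those of day 0 among them. If day 5 results helped to choose the genes, which the rule does not say, this test is not free of that choice. Of the 6 genes 0 passed: the adjusted p of limma ran from 0.190 (Myom2) to 0.626 (Rhpn1). Before adjustment over the 16864 genes, 1 of the 6, Myom2, was below 0.05 by limma. The differences ran from -1.01 ± 0.63 (Gabra4) to -2.88 ± 1.42 (Myl7), and Myom2 stood at -2.12 ± 0.74. None of the 6 was without overlap, against 5.18% of all genes tested. Few genes of any kind passed here (0.51% higher and 0.0771% lower).

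**Figure D2:**
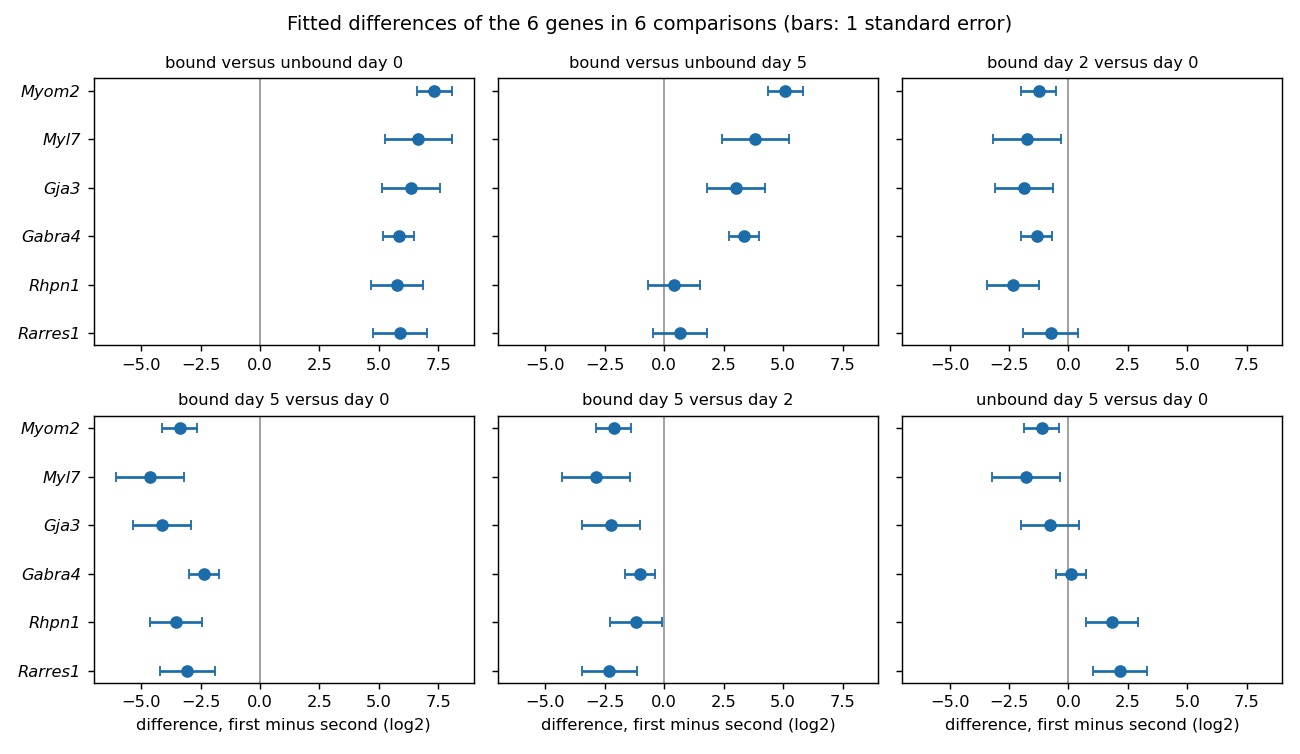
Fitted log2 differences (x axis, first group minus second) of the 6 genes in 6 comparisons between groups of 3 arrays; points are limma estimates and bars 1 standard error. Fitted values include signals at the negative controls, as in most unbound arrays, where the text gives lower bounds; the fitted bound minus unbound differences of Rhpn1 and Rarres1 are 5.77 and 5.89 on day 0 and 0.42 and 0.68 on day 5.

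Relatives of the 6 genes by family were read on the same arrays. Of the M-band genes, Myom1 on day 0 had 7.11 ± 0.34 in bound and 6.69 ± 0.18 in unbound RNA (difference 0.43 ± 0.69, adjusted p = 0.749 by limma), and Myom3 was near the negative controls throughout. The ventricular light chain gene Myl2 and the atrial and embryonic light chain gene Myl4 rose in the bound fraction from day 0 to day 5, by 2.30 ± 0.68 (adjusted p = 0.0297, limma) and 2.11 ± 0.59 (0.023), where Myl7 was lower on every array. The light chain gene of smooth muscle, Myl9, was higher in the bound fraction on day 0 (1.96 ± 0.29, adjusted p = 0.00228) and on day 5 (1.44 ± 0.29, 0.01). Among 11 connexin genes tested, 1 was higher in the bound fraction on day 0, where 4.81% of all genes were: Gja4, the connexin 37 gene of vessel walls, at 1.26 ± 0.25 (adjusted p = 0.00942, limma). On day 5, 2 passed as higher (Gja5 and Gjc1) and 2 as lower, where 6.37% and 7.74% of all genes did. Of the lower 2, Gjb2 was measured (-2.60 ± 0.63) and Gjb6 was at the negative controls in both fractions.

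Of the other GABA-A receptor subunit genes, 10 were tested, and 2 were higher in the bound fraction on both days (4.81% of all genes were on day 0 and 6.37% on day 5). Gabrb1, which codes for the beta-1 subunit, was at least 12-fold higher on day 0 (adjusted p = 0.00563, limma) and at least 2.98-fold higher on day 5 (0.0153). It was read at 7.96 ± 1.62 on the day 0, 6.43 ± 0.25 on the day 2 and 5.41 ± 0.05 on the day 5 bound arrays (SD, n = 3). Like Gabra4 it had lower bound means at each later day, and its fall from day 0 to day 5 passed the test (-2.55 ± 0.72, adjusted p = 0.0249, limma). Gabra3, the alpha-3 subunit gene, was higher in the bound fraction by 1.98 ± 0.41 on day 0 and 1.62 ± 0.41 on day 5. Gabra2, an alpha subunit gene as well, was at the negative controls.

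For Rhpn1 the contrast was with its relative Rhpn2, which was read at a similar level in both fractions on day 0 (9.97 ± 0.24 bound, 10.22 ± 0.17 unbound). By day 5 Rhpn2 was lower in the bound fraction than in the unbound fraction (-1.81 ± 0.46, adjusted p = 0.0248, limma), and it had fallen by 2.11 ± 0.46 on the log2 scale in the bound fraction since day 0 (0.00726).

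Lxn, which codes for latexin, the relative of the Rarres1 product, went the other way from Rarres1. It was at 8.54 ± 0.59 in the bound fraction on day 0, 10.82 ± 0.19 on day 2 and 11.55 ± 0.24 on day 5, a rise of 3.02 ± 0.29 by day 5 (adjusted p = 3.84e-05, limma), and it rose in the unbound fraction by 2.05 ± 0.29 (0.000997). Of the 16 genes tested on the list of retinoic acid response and latexin, 3 rose (Lxn, Aldh1a2 and Stra6), where 13.7% of all genes rose, 1 fell (Aldh1a3), where 9.99% fell, and 12 did not pass. Aldh1a2, whose enzyme makes retinoic acid, was 44.6-fold higher on day 5 than on day 0 (5.48 ± 0.47), and Stra6, the retinol uptake receptor gene, was at least 7.39-fold higher.

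Podocyte genes, the first set for comparison, were mostly higher in the bound fraction on day 0. Of 33 podocyte genes listed 29 were tested, and 18 of these were higher and 0 lower in the bound fraction on day 0, where 4.81% of all genes were higher and 4.1% lower (limma, adjusted p below 0.05 over all genes). Their median difference was 2.33 against -0.13 over all genes. Ddn (6.35 ± 0.60), the transcription factor gene Wt1 (5.55 ± 0.35), the receptor phosphatase gene Ptpro (5.09 ± 0.82) and Nphs1 (at least 39.6-fold) led the list. The labels call the bound samples pericytes and the unbound samples medulla. Genes of the podocyte list were above the negative controls in both fractions. On all 3 day 0 bound arrays 28 of the 29 were above them, and the remaining gene on at least 1. On all 3 day 0 unbound arrays 25 were, so detection alone hardly sets the fractions apart. On day 5, 9 podocyte genes were higher (6.37% of all genes) and 6 lower (7.74%), with a median of 0.56. The higher ones included Ddn (4.5 ± 0.60), Wt1 (3.16 ± 0.35) and Nphs1 (at least 4.80-fold), and the lower ones were Cd2ap, Npnt, Col4a3, Col4a4, Foxc1 and Robo2, the last of which was at the negative controls in both fractions and carries no measured difference. Without the 4 bright arrays the counts were 10 on day 0 and 0 on day 5, and with a term for these arrays in the fit, a setting added after seeing the data, they were 18 and 9.

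With obstruction, 19 of the 29 podocyte genes fell and 1 rose in the bound fraction from day 0 to day 5 (9.99% of all genes fell and 13.7% rose). Their median was -1.51 against 0.12 over all genes. Nphs1 (-3.45 ± 1.04, adjusted p = 0.0314 by limma), Ptpro (-3.34 ± 0.82, 0.0131), Lmx1b (-3.44 ± 0.93, 0.0194), a homeodomain factor gene of podocytes, and Ddn (-3.32 ± 0.60, 0.00237) had the largest falls, while Wt1 fell by 1.6 ± 0.35 on the log2 scale (0.00729). Nphs1 and Lmx1b were above the negative controls on 2 of 3 day 5 bound arrays, so their falls rest partly on background. Only these largest falls lie near the median of -3.44 of the 6 genes, and the list's median of -1.51 is smaller in size. Trpc6, a calcium channel gene, was the one that rose (3.33 ± 0.78, 0.0102). From day 0 to day 2 only Clic5 fell (1 of 29, against 3.65% of all genes), and 0 rose (5.6%), with a median of -0.83. Without the 4 bright arrays 10 fell by day 5, and 9 when only the 2 groups entered the fit. Between day 2 and day 5, 0 of 29 passed by limma, and 13 (1 higher, 12 lower) were below 0.05 before adjustment. Leaving out array 8, a day 2 bound array, raised the count that passed after adjustment from 0 to 9. Leaving out array 7 raised the count that fell from day 0 to day 2 from 1 to 6. In the unbound fraction the list's median was 0.28 from day 0 to day 5. In fractions of a lysate such as these, fewer cells of a type and less message per cell cannot be told apart.

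Markers of other kidney cells moved in the bound fraction beside the 6 genes. From day 0 to day 5, 9.99% of all genes tested fell and 13.7% rose there. The summed linear signal of the 29 podocyte genes was 89530 to 122164 on the day 0 bound arrays, 44538 to 76959 on day 2 and 35999 to 45196 on day 5, against 35776 to 36822 in the unbound fraction of day 0. The same sum over 11 endothelial genes went from 14779 to 16971 on day 0 to 6223 to 10184 on day 5, and 5 of these genes fell and 0 rose: Kdr, Flt1, Cldn5, Tek and Ehd3, among them receptors by which vessels sense growth factors. Of 8 tubule genes 7 fell and 0 rose, with sums of 25103 to 41158 on day 0 and 10941 to 14458 on day 5. Of the 14 fibroblast and pericyte genes 6 rose, Col1a1 among them (1.36 ± 0.19, adjusted p = 0.000574, limma), and 2 fell (Kcnj8 and Abcc9, which code for a potassium channel of pericytes), with sums of 34728 to 35979 on day 0 and 52005 to 58865 on day 5. The part of these shifts in the values of the 6 genes was not tested.

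Contractile genes of smooth muscle were also selective for the bound fraction but had another course. Of 20 genes, 11 were higher on day 0 and 11 on day 5, and 0 were lower on either day, with medians of 1.75 and 1.04. Of all genes tested, 4.81% were higher and 4.1% lower on day 0, and 6.37% and 7.74% on day 5. Smooth muscle actin (Acta2) was higher by 2.03 ± 0.21 on day 0 and 0.95 ± 0.21 on day 5. From day 0 to day 5 in the bound fraction 6 rose and 0 fell (13.7% and 9.99% of all genes): Cnn1 (5.51 ± 1.17), Actg2 (4.81 ± 0.69), Tpm2 (1.15 ± 0.25), Ppp1r12b (1.00 ± 0.32), Acta2 (0.92 ± 0.21) and Tagln (0.75 ± 0.22). Cnn1 codes for calponin and Actg2 for gamma smooth muscle actin. Cnn1 was above the negative controls on 2 of 3 day 0 bound arrays, so the size of its rise rests partly on background. The other 14 genes did not pass, among them the smooth muscle myosin gene Myh11 (-1.67 ± 0.80) and Lmod1 (-1.52 ± 0.84). From day 0 to day 2, 1 rose (Tpm2) and 0 fell (5.6% and 3.65% of all genes), and 0 passed between day 2 and day 5 by limma (3, all higher, before adjustment). Without the 4 bright arrays the count on day 5 was 0 and the count that rose from day 0 was 2.

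Sarcomere genes, the family to which Myom2 and Myl7 belong by function, were mostly low. Of 38 measured, 15 were above the negative controls on all 3 day 0 bound arrays, and 9, among them Tnni3, Myh4, Tcap and Neb, were above them on none. Of 34 tested, 3 were higher in the bound fraction on day 0 (Actn3, Nexn and Obsl1) and 1 lower (Myoz2), with a median of -0.09. Of all genes tested, 4.81% were higher and 4.1% lower. Myoz2 was above the negative controls on 1 of 3 day 0 bound arrays, so its difference rests partly on background. On day 5, 7 were higher and 0 lower (6.37% and 7.74% of all genes), led by cardiac actin (Actc1, 3.31 ± 0.61, adjusted p = 0.00684, limma). From day 0 to day 5 in the bound fraction 7 rose and 3 fell (13.7% and 9.99% of all genes). Actc1 rose most (5.25 ± 0.61, from 5.23 to 10.48), followed by Tnnt2, Ldb3, Myl2, Myoz2, Myl4 and Obsl1, and Actn3, Myh1 and Mybpc3 fell. Tnnt2, Ldb3 and Myoz2 were above the negative controls on 2, 2 and 1 of 3 day 0 bound arrays, and Myh1 on 0 of 3 day 5 bound arrays. Their sizes, and the order, therefore rest partly on background. Leaving out array 3 lowered the count of 10 genes that rose or fell to 4, and leaving out array 15 lowered the day 5 count of 7 to 3. Of 14 genes of cardiac and skeletal muscle outside the sarcomere, 6 were above the negative controls on no day 0 bound array (Ckm, Ryr1, Sln, Nppa, Nppb and Nkx2-5). Pln, Pygm and Eno3 were above them on all 3. In the day 0 unbound fraction 5 of the 14 were above them on none, so detection hardly sets the fractions apart. Of 13 tested, 1 was higher and 0 lower in the bound fraction on day 0, where 4.81% and 4.1% of all genes were.

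**Figure D3:**
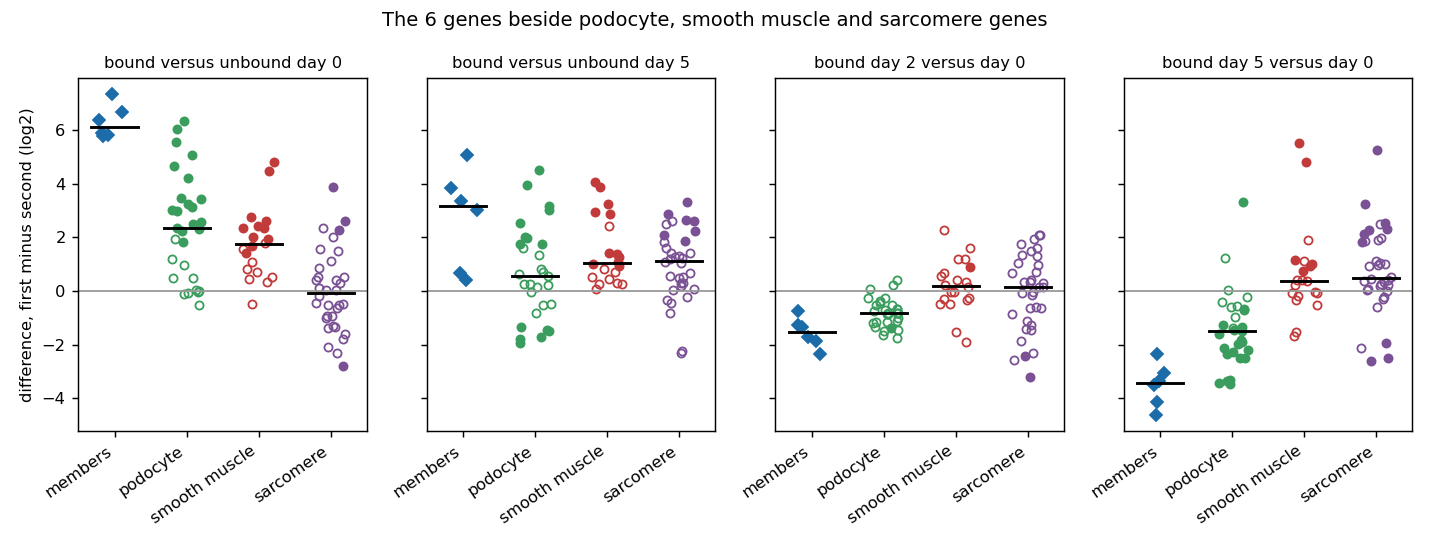
Log2 differences (y axis) of the 6 genes (diamonds) and of tested podocyte, smooth muscle and sarcomere genes (circles, filled where the adjusted p is below 0.05) in 4 comparisons; black bars are medians, and the diamonds carry no test. In the day 5 minus day 0 panel the 6 genes (median -3.44) and the podocyte genes (-1.51) lie below 0 and the smooth muscle (0.39) and sarcomere genes (0.49) centre above it.

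**Figure D4:**
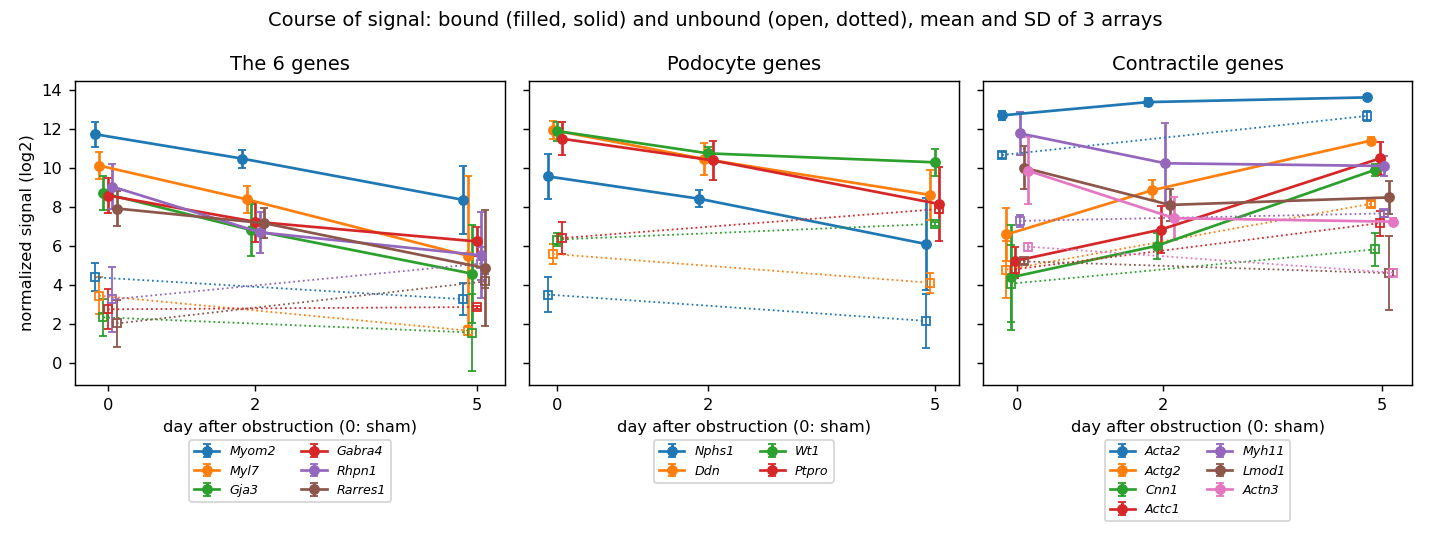
Normalized log2 signal (y axis) against day (x axis, sham on day 0) for the 6 genes, 4 podocyte genes and 7 contractile genes, a choice made with the values known; filled circles with solid lines are bound, open squares with dotted lines unbound, and bars are the SD of 3 arrays. The bound lines of the 6 genes and of Nphs1, Ddn, Wt1 and Ptpro go down with time; those of Acta2, Actg2, Cnn1 and Actc1 go up, while Myh11, Lmod1 and Actn3 end lower than they began.

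The genes most like each of the 6 were sought array by array. As the measure, Pearson's r with every other tested gene was computed over the 15 arrays, which share the split by fraction and day, so a high r is a description and carries no test. The 3 genes most like Myom2 were Ddn (0.990), Nphs1 (0.975) and Rab3b (0.974). Those most like Myl7 were Rab3b (0.969), Clic3 (0.968) and Nphs1 (0.963). For Gja3 they were Necab3 (0.971), Lmx1b (0.960) and Clic3 (0.959). For Gabra4 they were Wt1 (0.964), Shisa3 (0.957) and Cdkn1c (0.953), a cell cycle inhibitor gene of podocytes. Ptpro (0.957), Srgap1 (0.924) and Nebl (0.918) were most like Rhpn1, and Nebl (0.936), Sema3g (0.914) and Ptpro (0.906) most like Rarres1. The 15 arrays include those of day 0, which helped to choose the 6 genes. A likeness to other genes with high bound and low unbound signal on day 0 is therefore partly built in. Among the 50 genes most like each of the 6, 7 to 11 were on the podocyte list (29 of the 16864 genes tested). On the smooth muscle list (20 tested) were 0 or 1, and on the sarcomere list (34 tested) 0. These counts cover listed genes only: Nebl, which codes for nebulette, a Z-disc protein of the heart, is not on the sarcomere list, nor is Mylk3, a cardiac myosin light chain kinase gene ranked 4 for Gabra4 and named here after its value was seen.

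Within the 9 bound arrays alone, which share the day and array 11 but not a split by fraction, the lists parted. These arrays include those of day 0, which helped to choose the genes for being high there. A fall after day 0, and with it the sign of r with lists that fell or rose, is therefore partly built in. The median r with the 29 podocyte genes ran from 0.67 (Rarres1) to 0.80 (Gabra4), with the 20 smooth muscle genes from -0.51 (Gabra4) to -0.26 (Rarres1) and with the 34 sarcomere genes from -0.34 (Myl7) to -0.26 (Gabra4). Over all 15 arrays the median r with smooth muscle genes was positive, from 0.44 (Myl7) to 0.62 (Gabra4). The sign of that likeness thus depends on whether the unbound arrays are included. The 15 pairs among the 6 genes had r between 0.78 and 0.95 over 15 arrays and between 0.77 and 0.98 over the 9 bound arrays.

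**Figure D5:**
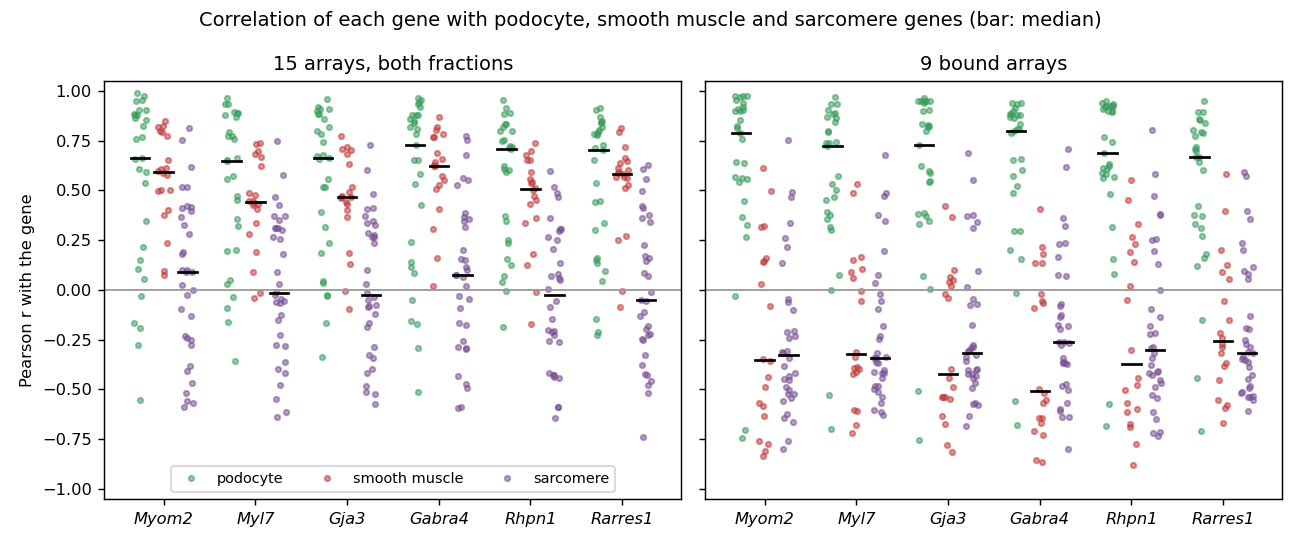
Pearson's r (y axis) of each of the 6 genes with each tested podocyte, smooth muscle and sarcomere gene, over all 15 arrays (left) and over the 9 bound arrays (right); points are genes and black bars medians. In the bound arrays the podocyte medians (0.67 to 0.80) are positive and the medians of both contractile lists are negative. These signs are partly built in, since the day 0 bound arrays helped to choose the genes.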

How the data were processed

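The authors deposited 1 linear intensity per probe set and array; per the labels, RNA had 1 round of NuGEN amplification. How probes were summarised, background-corrected or scaled is not given in the sources used here, and deposited array medians ran from 16.4 to 198.7. Intensities became log2(value + 1) and were quantile normalized. Of 45101 probe sets, 64 controls were then left out and 34945 named 1 gene; the brightest probe set on average stood for its gene. Genes that exceeded the 25th percentile on 3 or more arrays were tested (16864 of 18193, all 6 genes among them) with limma 3.58.1 in R 4.3.3, over 15 arrays with 1 coefficient per group, 10 residual and 2.32 prior degrees of freedom, Benjamini-Hochberg adjustment and a threshold of 0.05. The fit was checked on simulated data. An "at least" fold sets each array of the dimmer group to its highest negative control or its own value, whichever is higher. The 6 genes, the lists and the tests were chosen with earlier results of these data known. Genes named are the 6, the 3 most correlated with each, listed relatives, and list genes that passed or were brightest. Precision is limited by 3 arrays per group. Figures were drawn with matplotlib 3.10.9. A withheld item is not reported here.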

Additional observations from a re-analysis of the deposited data

Results flagged for a closer look

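The mean signals of Rhpn1 and Rarres1 moved in opposite directions in the 2 fractions between day 0 and day 5. The genes named above as most like them did the same, which follows in part from their choice by likeness over these same arrays. Whether the pattern is shared more widely was not tested. The bound and unbound changes were -3.34 and 1.49 for Ptpro, -3.84 and 1.36 for Nebl, -2.37 and 1.82 for Srgap1, and -2.50 and 0.73 for Sema3g. None of these unbound changes passed by limma. The unbound arrays of Rhpn1 overlapped between the days, with array 4 of day 0 at 4.90 and array 13 of day 5 at 4.12. For Rhpn1 each of the 3 bound arrays of day 5 lay below the day 0 bound mean, by 1.23 to 5.63, and each of the 3 unbound arrays lay above the day 0 unbound mean, by 0.86 to 2.48. The bound change minus the unbound change was -5.35 on the log2 scale. For Rarres1 the bound arrays lay below by 0.85 to 6.45 and the unbound arrays above by 1.87 to 2.56, and the difference between the changes was -5.21. Much of both values rests on signals below the negative controls, on array 11 in the bound fraction and in the unbound fraction of day 0. With each array at its own value or its highest negative control, whichever is higher, the difference between the changes was -3.70 for Rhpn1 and -2.07 for Rarres1, and without array 11 the bound change was -2.46 and -1.36. The difference was not tested, because the day 0 arrays chose the genes. The mean unbound signals of day 0 were at the negative controls, and with each array set to at least its highest negative control the unbound rise was at least 1.54-fold for Rhpn1 and at least 1.02-fold for Rarres1. No formal outlier test was run, since groups of 3 are too small for the one used.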

How the results depend on the processing

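In the comparison of bound day 5 with day 2, 0 of the 6 genes passed under every one of the 11 other settings, 1 of them chosen after seeing the data, and with each of the 15 arrays left out in turn. A few signs turned. From day 0 to day 5 in the unbound fraction Gja3 gave 0.24 with the mean of its probe sets, and Gabra4 gave -0.018 with array weights, -0.0082 with a pseudocount of 16 and -0.41 without array 4 (-0.41 to 0.62 over single arrays left out). Rhpn1 gave 0.30 for bound day 5 minus day 2 with array weights, and its day 5 bound minus unbound difference was -0.72 without array 10 and -0.06 without array 13 (-0.72 to 1.48 over single arrays left out). That of Rarres1 was -0.42 without array 10 (-0.42 to 2.37). The causes were not tested.

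List counts depended more on the setting. The setting added after seeing the data, a term for the 4 bright arrays in the fit over all 15, moved 1 count by over 1.5 times, podocyte genes lower on day 2 (2), and gave podocyte counts of 18 (day 0), 9 (day 5) and 19 (lower on day 5). Without the 4 bright arrays, which leaves fewer samples, the podocyte counts were 10 (bound higher, day 0), 0 (day 5), 0 (lower on day 2) and 10 (lower on day 5); the smooth muscle counts were 0 (bound higher, day 5) and 2 (rising by day 5); and the sarcomere counts were 0 (bound higher, day 5) and 3 (changed by day 5). At an adjusted p below 0.01 the podocyte counts were 4 (day 5), 0 (lower on day 2) and 12 (lower on day 5), the smooth muscle count 2 (day 5), and the sarcomere counts 3 (day 5) and 2 (changed by day 5). With only the groups compared in the fit, the podocyte counts were 0 (day 2) and 9 (lower on day 5), the smooth muscle count 3 (rising), and the sarcomere counts 12 (day 5) and 5 (changed by day 5). With array weights, 2 podocyte genes were lower on day 2, 1 smooth muscle gene fell by day 5, and 7 (day 0) and 11 (day 5) sarcomere genes were higher in the bound fraction. A pseudocount of 16 gave 3 podocyte genes lower on day 2, 1 changed between day 2 and day 5, and 2 smooth muscle genes changed in that interval. A filter at the 50th percentile gave podocyte counts of 4 and 1 for these intervals, and the trended variance prior 6 and 2. The mean of all probe sets gave 3 podocyte genes lower on day 2, and median centring gave 17 smooth muscle genes higher in the bound fraction on day 5.

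Leaving out 1 array at a time, the podocyte counts ranged from 17 to 20 on day 0, 6 to 10 on day 5, 0 to 6 for day 2 against day 0, 14 to 21 for day 5 against day 0 and 0 to 9 for day 5 against day 2. The smooth muscle counts ranged from 10 to 14 on day 0, 7 to 12 on day 5, 0 to 1 for genes lower on day 2 or on day 5, 0 to 2 for day 5 against day 2 and 4 to 7 for genes rising by day 5. The sarcomere counts ranged from 3 to 4 on day 0, 3 to 8 on day 5 and 4 to 13 for day 5 against day 0. No paired analysis was possible because the labels number the arrays 1 to 15 with no number common to 2 groups. Signals at the negative controls limit all unbound means of the 6 genes. For Myom2 on both days and for Rhpn1 and Rarres1 on day 5, 2 of 3 unbound arrays were above them, and for the rest fewer.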
